A study of Rattus norvegicus with 38 samples.

Results

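Glucose is burned in the lung through glycolysis, the pentose phosphate pathway branches off its first intermediate, and the hypoxia-inducible factors set the level of many of its genes. A list of 37 genes of these routes was followed in rat lung: glucose uptake, the glycolytic enzymes, lactate formation and export, the pentose phosphate enzymes, and the sensors and targets of the hypoxia response. Of the 37, 35 had a probe set annotated with their symbol alone, out of 14218 genes measured, while Hk3 and Pkm were not analysed here. The members were listed by name, with earlier results of these data known. A gene with several probe sets was read from the one with the highest mean.

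The RNA came from the lungs of 38 female N:NIH rats aged 34 weeks, 1 Affymetrix Rat Genome 230 2.0 array per animal. The animals belong to low capacity runner (LCR) and high capacity runner (HCR) lines, bred for a low or high intrinsic capacity for exercise, and they breathed cigarette smoke or, as sham animals, room air. Exposure took place on 5 days per week for 12 weeks. The groups held 12 LCR smoke, 7 LCR sham, 12 HCR smoke and 7 HCR sham animals, and array numbers name single animals. Each array averages a piece of about 25 mg of lung, in which fewer cells of a type and less RNA per cell cannot be told apart. Levels are given as linear intensity. A change is a difference on the scale log2(intensity + 16), given with its standard error (SE) from limma fitted to all 38 arrays, a scale that understates the change of dim genes. The threshold was a Benjamini-Hochberg adjusted p of 0.05 over all 14218 genes.

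Glycolysis splits glucose into pyruvate and yields ATP without oxygen, and lactate dehydrogenase turns pyruvate into lactate, which monocarboxylate transporters carry across the cell membrane. The pentose phosphate pathway gives NADPH, which keeps glutathione reduced, and ribose for nucleotides. With enough oxygen, prolyl hydroxylases mark the alpha subunits HIF1α (Hif1a) and HIF2α (Epas1) for destruction. When oxygen is scarce these subunits persist and bind DNA at hypoxia response elements, whose core is ACGTG or GCGTG, next to genes such as Ldha, Slc2a1, Bnip3 and Vegfa. NRF2, the regulator of antioxidant genes, binds antioxidant response elements, which hold TGACNNNGC, and is known in mouse and human cells to raise pentose phosphate genes such as Pgd, Tkt and Taldo1.

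Upstream sequence of 250 bases from RefSeq, build GRCr8, was matched to 33 of the 35 members. It is shown for 2 hypoxia targets whose transcripts rose, Ldha and Slc2a1, for Bnip3, a hypoxia target with as many cores that did not pass in either line, and for Slc16a3, which had the largest rise and no core. Capitals mark ACGTG or GCGTG on either strand, so that CACGT and CACGC are the same cores read from the other strand, and CACGTG holds the first core on both strands. The windows are chr1:106507842-106508091 on the plus strand for Ldha, chr5:138002272-138002521 on the plus strand for Slc2a1, chr1:203154963-203155212 on the minus strand for Bnip3 and chr10:106712078-106712327 on the plus strand for Slc16a3. Each is written 5′ to 3′ and ends at the base before the annotated transcript start.
Ldha: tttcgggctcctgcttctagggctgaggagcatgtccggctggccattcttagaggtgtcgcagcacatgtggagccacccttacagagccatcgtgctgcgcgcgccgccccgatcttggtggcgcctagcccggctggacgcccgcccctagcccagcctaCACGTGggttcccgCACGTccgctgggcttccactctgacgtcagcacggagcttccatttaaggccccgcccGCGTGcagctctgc
Slc2a1: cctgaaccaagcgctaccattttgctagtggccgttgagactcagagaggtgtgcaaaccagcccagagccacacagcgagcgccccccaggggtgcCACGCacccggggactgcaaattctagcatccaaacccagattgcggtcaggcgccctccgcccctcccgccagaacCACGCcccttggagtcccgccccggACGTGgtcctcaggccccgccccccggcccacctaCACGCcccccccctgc
Bnip3: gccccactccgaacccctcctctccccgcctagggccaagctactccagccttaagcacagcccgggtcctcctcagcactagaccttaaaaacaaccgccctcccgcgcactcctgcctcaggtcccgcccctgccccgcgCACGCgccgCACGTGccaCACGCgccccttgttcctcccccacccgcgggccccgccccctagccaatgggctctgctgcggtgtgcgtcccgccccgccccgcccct
Slc16a3: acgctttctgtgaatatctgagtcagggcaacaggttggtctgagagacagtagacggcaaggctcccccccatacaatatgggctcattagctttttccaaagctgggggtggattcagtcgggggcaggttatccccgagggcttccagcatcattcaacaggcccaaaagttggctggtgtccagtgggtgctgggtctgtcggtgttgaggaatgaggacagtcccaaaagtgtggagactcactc

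ACGTG was present in the windows of 13 of the 33 members (39.4%), against 16.9% of 27457 genes with a window of the same length. GCGTG was present in 15 members (45.5%) against 27.2%, and at least 1 of both cores in 20 members (60.6%) against 37.9%. Hif1a itself held 3 ACGTG matches, Taldo1 3 GCGTG matches, and Vegfa none in the first of its 2 windows. TGACNNNGC, also searched on both strands, was found upstream of Slc16a1 and Khk only, 6.06% of the members against 10.2% of all genes, and of neither Pgd, Taldo1 nor Tkt. A gene with several windows was read from the first, and the members and all genes were not matched for base composition. A match describes the letters of this window and is not a bound site.

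The surfactant gene Sftpc, which marks alveolar type 2 cells, was bright on every array, with a lowest intensity of 9830. Cyp1a1, the cytochrome P450 induced by smoke constituents, matched the exposure labels and rose by 7.13 ± 0.14 (SE, adjusted p = 3.2e-31) in LCR and by 7.19 ± 0.14 (SE, adjusted p = 2.3e-31) in HCR. On 6 arrays the listed markers of heart or skeletal muscle or of fat cells were high. The skeletal muscle markers of HCR sham 0433 averaged 4.88 log2 relative to all arrays, where the remaining HCR sham animals lay between -0.21 and -0.02. The heart muscle markers of LCR sham 0442 averaged 3.63, where those of its group lay between -0.89 and 0.85. Among HCR smoke animals the heart muscle average was 2.85 for 0410, 1.96 for 0414, 3.52 for 0415 and 1.45 for 0417, with the remaining 8 between -0.81 and 0.65. Muscle is known to make several glycolytic enzymes in large amounts. Calls that begin or end without these 6 arrays, and called changes that move by over 1.5 times, are given with and without them, and the part of other tissue in them was not tested further. The spread of log2 values within an array was narrower after smoke: its interquartile range averaged 2.916 ± 0.079 in LCR smoke animals, against 3.002 ± 0.022 in LCR sham animals (SD, n = 12 and 7). In HCR it averaged 2.861 ± 0.058 in smoke animals, against 2.995 ± 0.038 in sham animals (SD, n = 12 and 7). RNA quality was read from Actb, as the log2 value of its 3′ control probe set minus that of its 5′ one. This difference averaged 0.651 ± 0.044 in LCR smoke, 0.842 ± 0.135 in LCR sham, 0.666 ± 0.069 in HCR smoke and 0.922 ± 0.507 in HCR sham animals (SD, n = 12, 7, 12 and 7). HCR sham 0432 held the highest difference, 2.06 log2, where the remaining HCR sham animals lay between 0.626 and 0.829.

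After smoke, the glucose transporter Slc2a1, the glycolytic genes Hk2, Gapdh, Pgam1 and Eno1, the lactate genes Ldha, Slc16a1 and Slc16a3, and all 3 measured pentose phosphate members were higher in both lines, whereas the angiogenic hypoxia target Vegfa and the HIF2α gene Epas1 were lower. In LCR, 17 of the 35 members passed as higher and 3 as lower, 57.1% of the members against 50.6% of all genes measured. The higher calls made up 48.6% of the members against 22.7% of all genes, and the lower calls 8.57% against 27.9%. In HCR, 12 passed as higher and 6 as lower, 51.4% against 48.0% of all genes, with higher calls at 34.3% against 17.7% and lower calls at 17.1% against 30.4%. The median change of the members was 0.15 log2 in LCR, where all genes had a median of -0.0046, and 0.03 in HCR, where all genes had -0.03. Higher calls were 44.86% of all calls in LCR and 36.8% in HCR, and 64.75% and 53.08% with every array centred on its median. None of the members that passed changed direction under that centring or any of the other settings tried. With that interquartile range as a covariate, the lower calls in HCR numbered 3, and the HCR calls of Slc16a1, Pfkfb3, Ddit4, Gapdh, Hif1a, Pgam1 and Pfkm and the LCR call of Ldhb ended, while Pfkp passed as higher in HCR (0.19, adjusted p = 0.0479). With the Actb difference as a covariate, the HCR calls of Gapdh (adjusted p = 0.089), Slc16a1 (adjusted p = 0.0681) and Pfkfb3 (adjusted p = 0.0737) ended. Leaving out HCR sham 0433 alone brought Aldoa (0.25, adjusted p = 1.16e-05), Pgk1 (0.10, adjusted p = 0.0467), Pgm1 (0.16, adjusted p = 0.0374) and Ldhb (0.46, adjusted p = 0.0218) past the threshold in HCR. Pgm1 then passed in LCR too, with its change there still 0.15 (adjusted p = 0.0352), since all groups share 1 estimate of the spread.

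**Figure D1:**
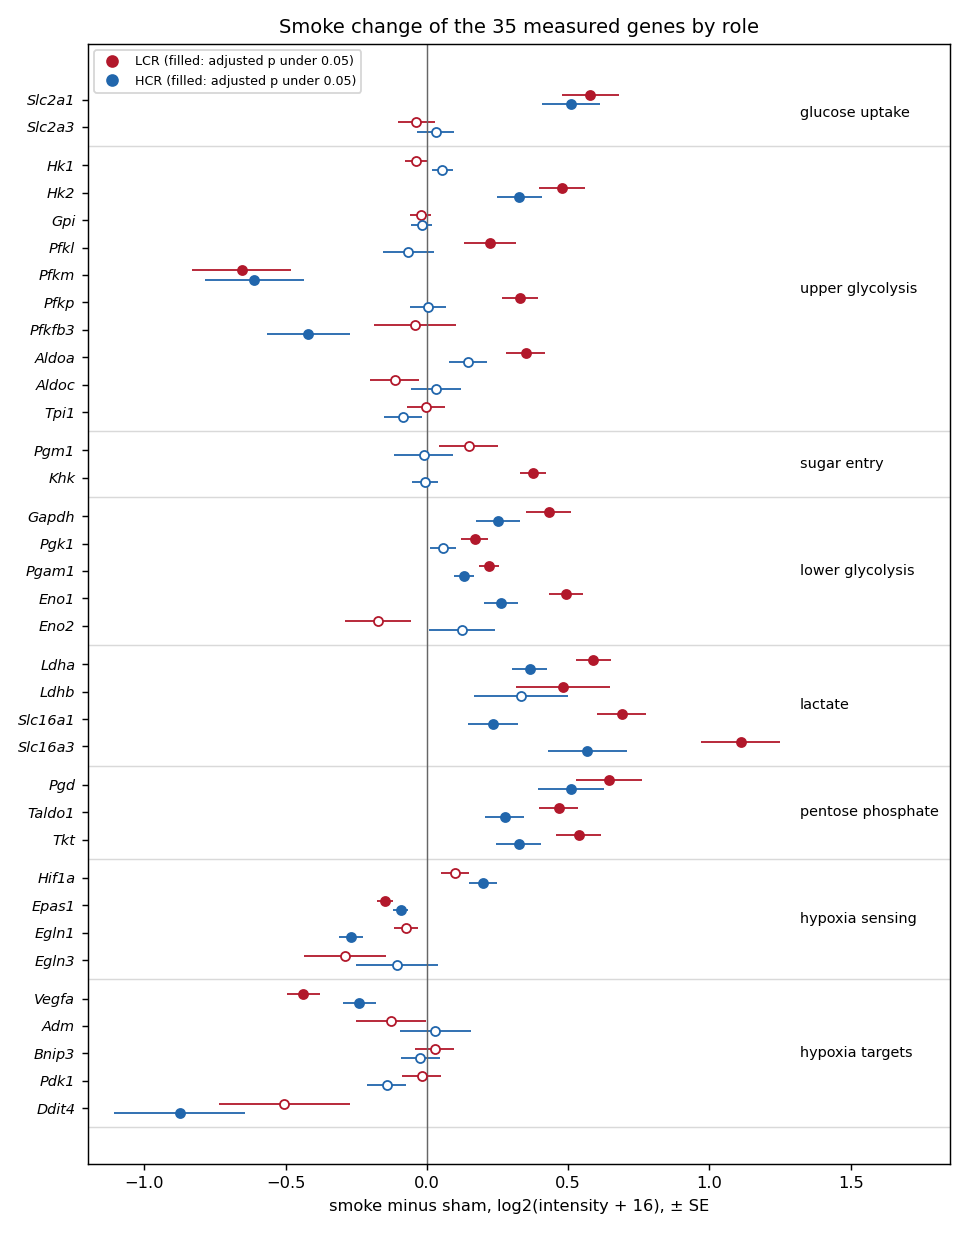
Smoke change of each of the 35 measured genes, smoke minus sham, in log2(intensity + 16) with its SE, ordered by role from glucose uptake at the top to hypoxia targets at the bottom. LCR is drawn above HCR for each gene and filled points passed an adjusted p of 0.05. The 4 lactate genes and the 3 pentose phosphate genes lie to the right of 0 in both lines, and Vegfa, Epas1 and Pfkm to the left.

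The same 11 members passed as higher in both lines: Slc2a1, Hk2, Gapdh, Pgam1, Eno1, Ldha, Slc16a1, Slc16a3, Pgd, Taldo1 and Tkt. Aldoa, Khk, Ldhb, Pfkl, Pfkp and Pgk1 passed as higher in LCR alone and Hif1a in HCR alone. Epas1, Pfkm and Vegfa passed as lower in both, and Ddit4, Egln1 and Pfkfb3 as lower in HCR alone. The difference between the lines was itself past the threshold only for Khk, Pfkp and Slc16a1, so the other names on these lists are not shown to differ between lines. The remaining 11 members passed in neither line, and none passed in opposite directions.

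In LCR, 14 of 35 members had smoke and sham animals that did not overlap at all (40% against 14.5% of all genes). Higher on every smoke array were 11 members, where 5.91% of all genes were, and lower 3, where 8.56% were. Those higher on every smoke array were Slc2a1, Pfkp, Aldoa, Khk, Eno1, Ldha, Slc16a1, Slc16a3, Pgd, Taldo1 and Tkt, and those lower were Pfkm, Epas1 and Vegfa. In HCR, Egln1 alone was separated, lower after smoke (2.86% of the members against 5.87% of all genes, of which 1.59% were higher and 4.28% lower).

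Slc2a1 encodes GLUT1, the basal glucose transporter, and a hypoxia target. Slc2a1 had lowest, median and highest intensities of 208, 264 and 295 on LCR smoke arrays, against 144, 167 and 203 on LCR sham arrays. In HCR, Slc2a1 lay at 172, 235 and 385 on smoke arrays, against 143, 173 and 195 on sham arrays. Each LCR smoke array was above all LCR sham arrays, and 10 of 12 HCR smoke arrays were above all HCR sham arrays. The change was 0.58 ± 0.10 log2 in LCR (SE, adjusted p = 1.54e-05) and 0.51 ± 0.10 in HCR (adjusted p = 0.000113). HCR smoke 0410, 1 of the arrays with heart muscle markers, held the highest value. Slc2a3, the GLUT3 transporter, was dim, with a mean intensity of 27.2, and did not pass (-0.04 ± 0.07 in LCR and 0.03 ± 0.07 in HCR). A second probe set, with a mean intensity of 9.4, passed as higher in HCR (0.11 ± 0.04, adjusted p = 0.0137 among all probe sets) and was at 0.03 ± 0.04 in LCR.

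**Figure D2:**
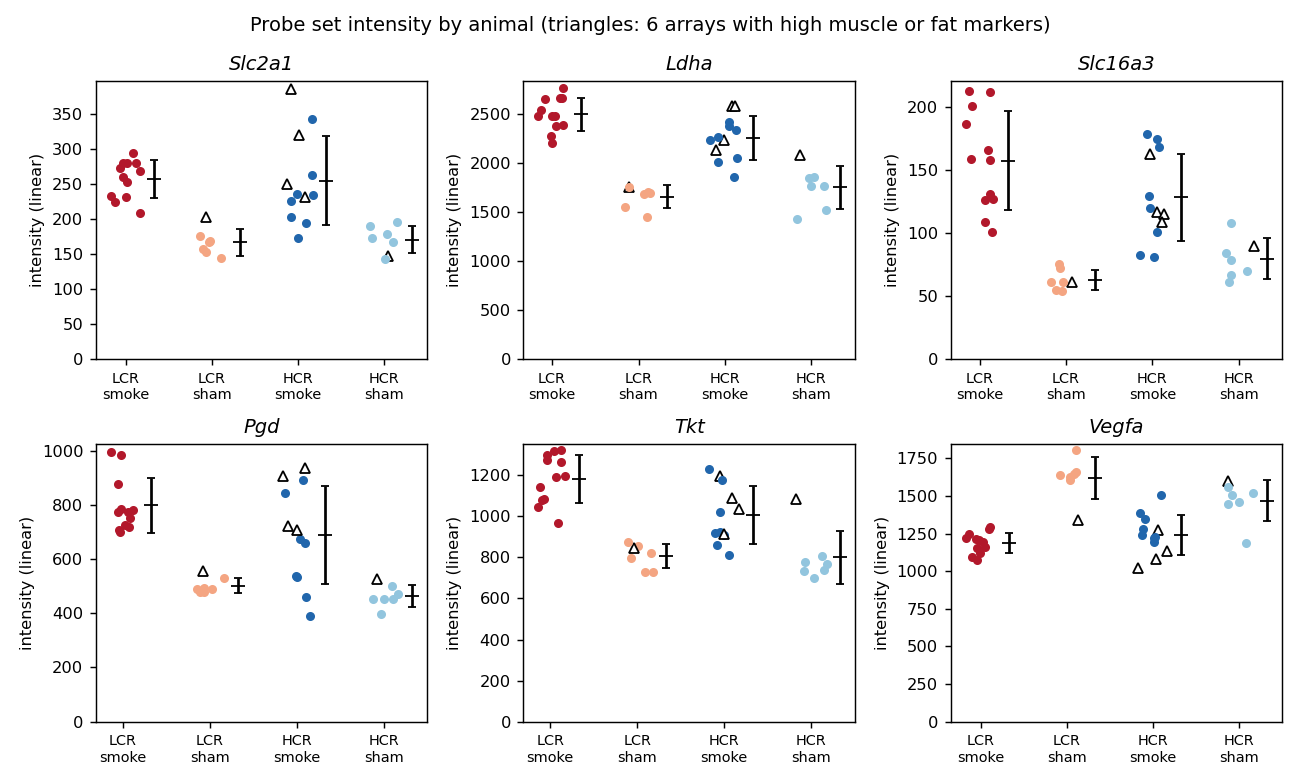
Linear probe set intensity per animal of Slc2a1, Ldha, Slc16a3, Pgd, Tkt and Vegfa in the LCR smoke, LCR sham, HCR smoke and HCR sham groups, with the group mean and SD beside the points and every axis starting at 0. Triangles are the 6 arrays with high muscle or fat markers. The 12 LCR smoke animals lie clear of the 7 LCR sham animals for all 6 genes, and HCR smoke animals overlap HCR sham animals.

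Hexokinases trap glucose in the cell as glucose 6-phosphate. Hk2, the inducible isoform, lay near the pseudocount of 16, where the log2 scale understates a change most. Hk2 had lowest, median and highest intensities of 21.3, 29.1 and 42.6 on LCR smoke arrays, against 12.8, 17 and 23.1 on LCR sham arrays. In HCR, Hk2 lay at 20.6, 28.1 and 34.9 on smoke arrays, against 10.2, 17.9 and 28.9 on sham arrays. On smoke arrays 10 of 12 in LCR and 5 of 12 in HCR exceeded every sham array of their line. Its change was 0.48 ± 0.08 log2 in LCR (SE, adjusted p = 7.68e-06) and 0.33 ± 0.08 in HCR (adjusted p = 0.00118), and on the linear scale the ratio of mean intensities was 1.78 in LCR and 1.45 in HCR. The ubiquitous Hk1 did not pass (-0.04 ± 0.04 in LCR and 0.05 ± 0.04 in HCR). A dimmer control probe set of Hk1 was higher by 0.26 ± 0.06 in LCR (adjusted p = 0.000888) and 0.21 ± 0.06 in HCR (adjusted p = 0.00563) among all probe sets. With the mean of its probe sets Hk1 passed as higher in both lines, at 0.12 in LCR (adjusted p = 0.0133) and 0.10 in HCR (adjusted p = 0.0305). In HCR, Hk1 also passed as higher with quantile normalization (0.13, adjusted p = 0.00343) and with median-centred arrays (0.10, adjusted p = 0.0243). Gpi, which isomerises glucose 6-phosphate, was at -0.02 ± 0.04 in both lines and did not pass.

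Phosphofructokinase makes the committed step of glycolysis, and its subunit genes moved in different directions. Pfkm, the muscle subunit, was lower after smoke. Pfkm had lowest, median and highest intensities of 76.1, 86.3 and 97.3 on LCR smoke arrays, against 119, 135 and 250.3 on LCR sham arrays. In HCR, Pfkm lay at 74.4, 86.9 and 142 on smoke arrays, against 109.5, 124 and 505 on sham arrays. All LCR smoke arrays lay below all LCR sham arrays, and 10 of 12 HCR smoke arrays below all HCR sham arrays. The change was -0.66 ± 0.18 log2 in LCR (SE, adjusted p = 0.00222) and -0.61 ± 0.18 in HCR (adjusted p = 0.00445). LCR sham 0442 and HCR sham 0433 were the highest arrays of their groups, and the HCR change was -0.34 without HCR sham 0433. Without the 6 arrays it was -0.53 ± 0.06 (SE, adjusted p = 5.81e-08) in LCR and -0.46 ± 0.07 (SE, adjusted p = 6.76e-06) in HCR. A second probe set was lower as well (-0.55 ± 0.19 in LCR and -0.51 ± 0.19 in HCR), and the dimmest, with a mean intensity of 7.38, was higher by 0.07 ± 0.03 and 0.08 ± 0.03.

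Pfkp, the platelet subunit, and Pfkl, the liver subunit, passed as higher in LCR. Pfkp had lowest, median and highest intensities of 541, 616 and 726 on LCR smoke arrays, against 450.0, 482 and 532 on LCR sham arrays. In HCR, Pfkp lay at 486, 564 and 662 on smoke arrays, against 482, 578 and 629 on sham arrays. Smoke and sham animals were separate in LCR and interleaved in HCR. Pfkp changed by 0.33 ± 0.06 (SE, adjusted p = 5.48e-05) in LCR and 0.00 ± 0.06 (SE, adjusted p = 0.957) in HCR. Pfkl had lowest, median and highest intensities of 126, 187 and 219.8 on LCR smoke arrays, against 116, 147 and 179.7 on LCR sham arrays. In HCR, Pfkl lay at 167, 183 and 237 on smoke arrays, against 165, 194 and 236 on sham arrays. For Pfkl, 7 of 12 LCR smoke arrays were above every LCR sham array, and HCR smoke and HCR sham covered nearly the same range. Pfkl changed by 0.22 ± 0.09 (SE, adjusted p = 0.0393) in LCR and -0.07 ± 0.09 (SE, adjusted p = 0.578) in HCR, and the LCR call ended in 10 of 38 fits with 1 array left out, 4 of them sham and 6 smoke arrays of that line, with adjusted p up to 0.132.

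Pfkfb3 makes fructose 2,6-bisphosphate, the allosteric activator of phosphofructokinase. Pfkfb3 had lowest, median and highest intensities of 229.5, 314 and 402 on LCR smoke arrays, against 254, 288 and 479 on LCR sham arrays. In HCR, Pfkfb3 lay at 231, 313 and 490.5 on smoke arrays, against 311, 398 and 817 on sham arrays. Groups overlapped in LCR, and in HCR 6 of 12 smoke arrays lay below all sham arrays, of which 0434 was far the highest. The change was -0.04 ± 0.15 log2 in LCR (SE, adjusted p = 0.829) and -0.42 ± 0.15 in HCR (adjusted p = 0.0175). Without HCR sham 0434 the HCR change was -0.27 (adjusted p = 0.0956). A second, dimmer probe set of the gene was higher in both lines (0.27 ± 0.06 each, adjusted p = 0.000412 in LCR and 0.000651 in HCR among all probe sets), so these probe sets disagree in direction in HCR.

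Of the enzymes that cleave and interconvert the triose phosphates, Aldoa passed in LCR by 0.35 ± 0.07 (SE, adjusted p = 6.39e-05) and was at 0.14 ± 0.07 (SE, adjusted p = 0.0779) in HCR, where it did not pass. HCR sham 0433 held the highest Aldoa value of all arrays, 4664, where the next HCR sham array had 2931. Without the 6 arrays Aldoa passed in both lines, at 0.39 ± 0.04 (SE, adjusted p = 2.06e-09) in LCR and 0.23 ± 0.04 (SE, adjusted p = 4.57e-05) in HCR. Aldoc, the brain aldolase (-0.11 ± 0.09 in LCR and 0.03 ± 0.09 in HCR), and Tpi1, triose phosphate isomerase (-0.00 ± 0.07 and -0.09 ± 0.07), did not pass.

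Side entries into the pathway run through Pgm1, phosphoglucomutase, which links glycogen to glucose 6-phosphate, and Khk, ketohexokinase, which phosphorylates fructose. Pgm1 did not pass (0.15 ± 0.10 in LCR and -0.01 ± 0.10 in HCR), and HCR sham 0433 lay at an intensity of 413.8 where the next array had 202.5. Without HCR sham 0433 alone the HCR value was 0.16 and passed (adjusted p = 0.0374), the opposite sign to the value with all arrays. Without the 6 arrays Pgm1 passed as higher in LCR, at 0.21 ± 0.05 (SE, adjusted p = 0.000316), and not in HCR, at 0.09 ± 0.05 (SE, adjusted p = 0.132).

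The lower steps of glycolysis recover ATP, and of their 5 measured genes 4 passed as higher in LCR and 3 in HCR. Higher calls made up 22.7% of all genes in LCR and 17.7% in HCR, and lower calls 27.9% and 30.4%. In the upper steps, from the hexokinases to Tpi1, 4 of 10 genes passed as higher and 1 as lower in LCR. In HCR, 1 of these 10 passed as higher and 2 as lower. Gapdh, glyceraldehyde 3-phosphate dehydrogenase, was read from an Affymetrix control probe set at its 3′ end. Gapdh had lowest, median and highest intensities of 2370, 2545 and 2839 on LCR smoke arrays, against 1462, 1905 and 2444 on LCR sham arrays. In HCR, Gapdh lay at 2090, 2464 and 2762 on smoke arrays, against 1573, 2029 and 3025 on sham arrays. In LCR, 10 of 12 smoke arrays exceeded all sham arrays, and in HCR none did. HCR sham 0433 was the highest array of its line, and each of the 12 HCR smoke arrays exceeded the next HCR sham array, at 2071. The change was 0.43 ± 0.08 log2 in LCR (SE, adjusted p = 2.95e-05) and 0.25 ± 0.08 in HCR (adjusted p = 0.00929). The control probe sets at its 5′ end and middle were higher too, by 0.54 ± 0.14 and 0.53 ± 0.12 in LCR and by 0.47 ± 0.14 and 0.37 ± 0.12 in HCR.

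Eno1, the ubiquitous enolase, rose in both lines. Eno1 had lowest, median and highest intensities of 1260, 1455 and 1586 on LCR smoke arrays, against 861, 1010 and 1174 on LCR sham arrays. In HCR, Eno1 lay at 1119, 1305 and 1443 on smoke arrays, against 854, 1105 and 1235 on sham arrays. The LCR groups were separate, and 8 of 12 HCR smoke arrays were above all HCR sham arrays. Its change was 0.49 ± 0.06 log2 in LCR (SE, adjusted p = 2.99e-08) and 0.26 ± 0.06 in HCR (adjusted p = 0.000532). Pgam1, phosphoglycerate mutase, rose by 0.22 ± 0.04 (SE, adjusted p = 4.56e-06) in LCR and by 0.13 ± 0.04 (SE, adjusted p = 0.00306) in HCR. Pgk1, phosphoglycerate kinase, rose by 0.17 ± 0.05 (SE, adjusted p = 0.00318) in LCR and was at 0.06 ± 0.05 (SE, adjusted p = 0.327) in HCR, where a second probe set passed as higher (0.19 ± 0.06, adjusted p = 0.00902 among all probe sets). Eno2, the neuronal enolase, did not pass (-0.17 ± 0.12 in LCR and 0.12 ± 0.12 in HCR).

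The largest rise of the list was in lactate transport. Slc16a3 encodes MCT4, the exporter that glycolytic cells use for lactate. Slc16a3 had lowest, median and highest intensities of 101, 158 and 213 on LCR smoke arrays, against 54, 60.9 and 75.2 on LCR sham arrays. In HCR, Slc16a3 lay at 80.6, 119 and 178 on smoke arrays, against 60.8, 79 and 108 on sham arrays. Smoke and sham animals did not overlap in LCR, and 9 of 12 HCR smoke arrays were above all HCR sham arrays. Slc16a3 rose by 1.11 ± 0.14 (SE, adjusted p = 4.5e-08) in LCR and by 0.57 ± 0.14 (SE, adjusted p = 0.00104) in HCR, ratios of mean intensities of 2.51 and 1.61. The difference of 0.54 ± 0.20 between the lines did not pass (adjusted p = 0.121).

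Slc16a1 encodes MCT1, which carries lactate in either direction. Slc16a1 had lowest, median and highest intensities of 256, 318 and 388 on LCR smoke arrays, against 168, 174 and 255 on LCR sham arrays. In HCR, Slc16a1 lay at 242, 311 and 376 on smoke arrays, against 197, 247 and 309 on sham arrays. LCR sham animals were the lowest group, 6 of 7 of them at or below 190.9, and HCR smoke and HCR sham overlapped, with 6 of 12 smoke arrays above all sham arrays. Slc16a1 rose by 0.69 ± 0.09 (SE, adjusted p = 6.74e-08) in LCR and by 0.23 ± 0.09 (SE, adjusted p = 0.0269) in HCR. The HCR call ended without HCR sham 0432, 0435 or 0438, at adjusted p = 0.0574, 0.107 and 0.056.

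Ldha, the subunit of lactate dehydrogenase that favours lactate, rose in both lines. Ldha had lowest, median and highest intensities of 2209, 2484 and 2771 on LCR smoke arrays, against 1450, 1695 and 1759 on LCR sham arrays. In HCR, Ldha lay at 1854, 2250 and 2585 on smoke arrays, against 1432, 1769 and 2080 on sham arrays. All LCR smoke arrays and 9 of 12 HCR smoke arrays lay above every sham array of their line. Ldha rose by 0.59 ± 0.06 (SE, adjusted p = 1.44e-09) in LCR and by 0.36 ± 0.06 (SE, adjusted p = 1.22e-05) in HCR, and left-out arrays kept the change between 0.56 and 0.60 in LCR and between 0.32 and 0.41 in HCR. Ldhb, the subunit abundant in heart, rose by 0.48 ± 0.17 (SE, adjusted p = 0.0163) in LCR and was at 0.33 ± 0.17 (SE, adjusted p = 0.0985) in HCR, where it did not pass. Ldhb had lowest, median and highest intensities of 591, 644 and 778 on LCR smoke arrays, against 342, 379 and 1225 on LCR sham arrays. In HCR, Ldhb lay at 453, 619 and 949.6 on smoke arrays, against 401, 473 and 871 on sham arrays. LCR sham 0442 and HCR sham 0433 stood far above their groups, and the next arrays had 477.1 and 507.6. The LCR call ended without LCR sham 0445 (adjusted p = 0.0506). Without the 6 arrays Ldhb passed in both lines, at 0.71 ± 0.08 (SE, adjusted p = 1.24e-08) in LCR and 0.28 ± 0.08 (SE, adjusted p = 0.00824) in HCR.

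**Figure D3:**
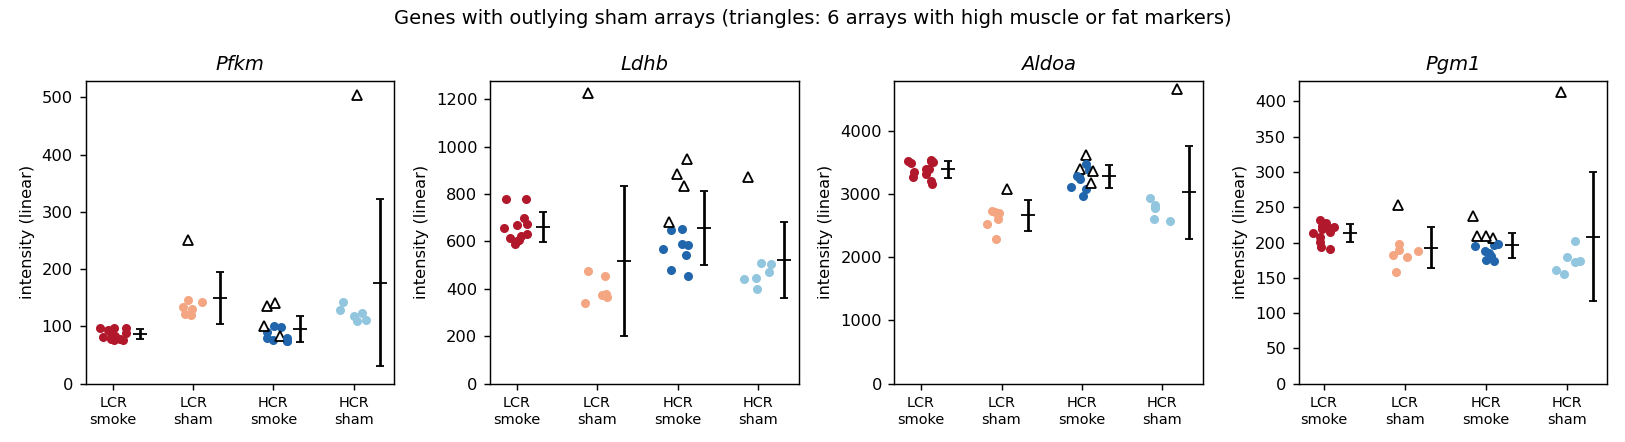
Linear intensity per animal of Pfkm, Ldhb, Aldoa and Pgm1 in the LCR smoke, LCR sham, HCR smoke and HCR sham groups, with group mean and SD. Triangles are the 6 arrays with high muscle or fat markers. HCR sham 0433 reaches 504.8 for Pfkm and 4664 for Aldoa, and LCR sham 0442 reaches 1225 for Ldhb, each far above the other animals of its group.

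All 3 measured pentose phosphate members rose in both lines, where 22.7% of all genes passed as higher in LCR and 17.7% in HCR. Pgd, 6-phosphogluconate dehydrogenase, makes NADPH in the oxidative branch. Pgd had lowest, median and highest intensities of 701, 773 and 995 on LCR smoke arrays, against 478, 491 and 554 on LCR sham arrays. In HCR, Pgd lay at 391, 691 and 937 on smoke arrays, against 398, 453 and 525 on sham arrays. In HCR the smoke animals ranged widely: 10 of 12 exceeded all sham arrays, while 0412 lay below them all. Pgd rose by 0.64 ± 0.12 (SE, adjusted p = 2.44e-05) in LCR and by 0.51 ± 0.12 (SE, adjusted p = 0.00058) in HCR.

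Taldo1, transaldolase, and Tkt, transketolase, shuttle carbons between the pathway and glycolysis. Taldo1 had lowest, median and highest intensities of 1584, 1955 and 2259 on LCR smoke arrays, against 1181, 1430 and 1556 on LCR sham arrays. In HCR, Taldo1 lay at 1516, 1792 and 2114 on smoke arrays, against 1219, 1570 and 1641 on sham arrays. Smoke and sham were separate in LCR, and 10 of 12 HCR smoke arrays were above all HCR sham arrays. Taldo1 rose by 0.47 ± 0.07 log2 in LCR (SE, adjusted p = 8.34e-07) and 0.28 ± 0.07 in HCR (adjusted p = 0.00125). Tkt had lowest, median and highest intensities of 967, 1195 and 1321 on LCR smoke arrays, against 728, 821 and 873 on LCR sham arrays. In HCR, Tkt lay at 810.4, 971 and 1229 on smoke arrays, against 698, 768 and 1085 on sham arrays. For Tkt the LCR groups were separate, and HCR sham 0433 overlapped HCR smoke where the other HCR sham arrays had at most 804.9. Tkt rose by 0.54 ± 0.08 log2 in LCR (SE, adjusted p = 8.29e-07) and 0.32 ± 0.08 in HCR (adjusted p = 0.001).

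Among the 4 measured genes of oxygen sensing, 1 passed as lower in LCR, and in HCR 1 passed as higher and 2 as lower. Lower calls made up 27.9% of all genes in LCR and 30.4% in HCR, and higher calls 22.7% and 17.7%. The 4 genes are too few to be set apart from these shares. Hif1a rose in HCR, and its LCR value did not pass. Hif1a had lowest, median and highest intensities of 927, 1026 and 1246 on LCR smoke arrays, against 879.7, 980.3 and 1032 on LCR sham arrays. In HCR, Hif1a lay at 982, 1131 and 1188 on smoke arrays, against 829.8, 996 and 1125 on sham arrays. In HCR, 7 of 12 smoke arrays were above every sham array, and in LCR 5 of 12. The change was 0.10 ± 0.05 log2 in LCR (SE, adjusted p = 0.0984) and 0.20 ± 0.05 in HCR (adjusted p = 0.00164), and the interaction did not pass (adjusted p = 0.476). Transcript level is only a part of HIF control, which acts mainly on protein stability.

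Epas1, abundant in lung endothelium and alveolar type 2 cells, was lower after smoke by a small amount. Epas1 had lowest, median and highest intensities of 4244, 4644 and 4845 on LCR smoke arrays, against 4883, 5054 and 5415 on LCR sham arrays. In HCR, Epas1 lay at 4343, 4606 and 4865 on smoke arrays, against 4685, 4800 and 5227 on sham arrays. The LCR groups did not overlap, and 9 of 12 HCR smoke arrays lay below all HCR sham arrays. The change was -0.15 ± 0.03 log2 in LCR (SE, adjusted p = 3.19e-05) and -0.09 ± 0.03 in HCR (adjusted p = 0.0056). A second probe set was at -0.21 ± 0.15 in LCR and -0.14 ± 0.15 in HCR and did not pass. With the mean of its probe sets the Epas1 calls ended in LCR (adjusted p = 0.0618) and HCR (adjusted p = 0.243), and with median-centred arrays the HCR call ended (adjusted p = 0.2).

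Egln1 encodes PHD2, the main prolyl hydroxylase that marks HIF subunits. Egln1 had lowest, median and highest intensities of 278, 319 and 344 on LCR smoke arrays, against 300.2, 336 and 357 on LCR sham arrays. In HCR, Egln1 lay at 264, 297 and 334 on smoke arrays, against 341, 355 and 416 on sham arrays. Every HCR smoke array was below every HCR sham array, and the LCR groups overlapped. The change was -0.07 ± 0.04 log2 in LCR (SE, adjusted p = 0.142) and -0.27 ± 0.04 in HCR (adjusted p = 3.82e-06), and the interaction of 0.19 ± 0.06 did not pass (adjusted p = 0.0677), although it did without HCR sham 0432 or 0439, HCR smoke 0412 or LCR smoke 0422 (adjusted p = 0.0379 to 0.0469). A second probe set with a mean intensity of 22.4 was higher in both lines (0.25 ± 0.06 in LCR and 0.22 ± 0.06 in HCR), the opposite direction, and with the mean of the probe sets the HCR call ended (adjusted p = 0.576) and the LCR value passed as higher (0.09, adjusted p = 0.028). Egln3, which encodes PHD3, a hydroxylase that is itself a hypoxia target, did not pass (-0.29 ± 0.15 in LCR and -0.10 ± 0.15 in HCR). Egln3 passed as lower in HCR without the 6 arrays, at -0.19 ± 0.07 (SE, adjusted p = 0.0418), and was at -0.10 ± 0.07 (SE, adjusted p = 0.24) in LCR.

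Vegfa, the vascular growth factor, was lower after smoke. Vegfa had lowest, median and highest intensities of 1076, 1201 and 1291 on LCR smoke arrays, against 1341, 1641 and 1808 on LCR sham arrays. In HCR, Vegfa lay at 1024, 1233 and 1504 on smoke arrays, against 1189, 1506 and 1602 on sham arrays. All 12 LCR smoke arrays lay below the lowest LCR sham array, and in HCR 3 of 12 lay below HCR sham 0436, the lowest of its group. The change was -0.44 ± 0.06 log2 in LCR (SE, adjusted p = 2.18e-07) and -0.24 ± 0.06 in HCR (adjusted p = 0.00127). Without the 6 arrays it was -0.48 ± 0.05 (SE, adjusted p = 8.76e-09) in LCR and -0.15 ± 0.05 (SE, adjusted p = 0.0281) in HCR, and the line by smoke interaction then passed at -0.33 ± 0.07 (SE, adjusted p = 0.0416), against -0.20 ± 0.08 (SE, adjusted p = 0.189) with all arrays. With all arrays, a second probe set of Vegfa passed as lower in LCR (-0.33 ± 0.12, adjusted p = 0.0214 among all probe sets). In HCR that probe set was at -0.23 ± 0.12 and did not pass (adjusted p = 0.108). Endothelial markers were lower too: of 11 listed and measured, 10 passed as lower in LCR and 9 in HCR, with list means of -0.33 to -0.06 after smoke against 0.09 to 0.38 under sham in LCR, and -0.38 to 0.07 against 0.09 to 0.33 in HCR. Alveolar type 1 markers were lower in 7 of 8 in LCR and 8 of 8 in HCR, with list means of -0.25 to 0.05 after smoke against -0.03 to 0.31 under sham in LCR, and -0.48 to 0.04 against 0.01 to 0.35 in HCR. Of 10 alveolar type 2 markers, 7 passed as higher and 0 as lower in LCR, and 3 as higher and 1 as lower in HCR. Their list means were 0.01 to 0.12 after smoke against -0.36 to 0.0013 under sham in LCR, and -0.09 to 0.13 against -0.13 to 0.09 in HCR. Of all genes, 22.7% passed as higher and 27.9% as lower in LCR, and 17.7% and 30.4% in HCR. The part of endothelial and alveolar cells in the changes of Epas1 and Vegfa was not tested.

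Ddit4, which encodes REDD1, a stress-induced brake on mTOR, passed as lower in HCR. Ddit4 had lowest, median and highest intensities of 135, 194 and 377 on LCR smoke arrays, against 237, 310.5 and 375 on LCR sham arrays. In HCR, Ddit4 lay at 139, 205 and 262 on smoke arrays, against 128, 498 and 910.3 on sham arrays. HCR sham animals ranged over the whole span of the other groups, and all HCR smoke values lay inside it. The change was -0.51 ± 0.23 log2 in LCR (SE, adjusted p = 0.0669) and -0.87 ± 0.23 in HCR (adjusted p = 0.00229). The LCR value passed without HCR sham 0434 or 0435 or LCR smoke 0426 or 0427 (adjusted p = 0.0327 to 0.0452). Adm, adrenomedullin (-0.13 ± 0.13 in LCR and 0.03 ± 0.13 in HCR), and Bnip3, a mitophagy receptor (0.03 ± 0.07 and -0.02 ± 0.07), passed in neither line. Pdk1, the kinase that closes pyruvate dehydrogenase, was at -0.02 ± 0.07 and -0.14 ± 0.07 and did not pass either, although in HCR it passed without HCR smoke 0410 (-0.17, adjusted p = 0.0386). A second probe set of Pdk1 passed as lower in HCR (-0.21 ± 0.08, adjusted p = 0.0408 among all probe sets) and was at 0.12 ± 0.08 in LCR. With the mean of its probe sets Pdk1 passed as lower in HCR (-0.18, adjusted p = 0.0421). Of the 5 listed hypoxia targets outside glycolysis, 0 passed as higher in either line (limma), and 0 were higher at an unadjusted p of 0.05. Of all genes, 22.7% passed as higher in LCR and 17.7% in HCR, and 5 genes are too few to be set apart from these shares.

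Between the lines, few members differed. Under sham, 0 of 35 passed as higher and 3 as lower in LCR than in HCR (8.57% against 3.73% of all genes, of which 1.39% were higher and 2.34% lower): Slc16a1 at -0.44 ± 0.10 (SE, adjusted p = 0.00733), Pfkl at -0.35 ± 0.10 (SE, adjusted p = 0.0444) and Khk at -0.19 ± 0.05 (SE, adjusted p = 0.0345). After smoke, Khk and Tkt passed as higher in LCR and Slc2a3 as lower (8.57% against 6.32% of all genes, of which 4.62% were higher and 1.70% lower). Khk was at 0.20 ± 0.04 (SE, adjusted p = 0.00218), Tkt at 0.23 ± 0.07 (SE, adjusted p = 0.0318) and Slc2a3 at -0.20 ± 0.06 (SE, adjusted p = 0.0266). The second, dimmer probe set of Slc2a3 was at -0.04 ± 0.03 and did not pass (adjusted p = 0.427 among all probe sets). None of the members had LCR and HCR animals that did not overlap. Under sham 0.858% of all genes did (0.239% higher and 0.619% lower), and after smoke 0.0844% (0.0492% higher and 0.0352% lower). At an unadjusted p of 0.05, 8 members differed under sham and 11 after smoke. Shares of all genes at that unadjusted threshold were not counted, so these counts do not set the members apart. Several of these calls ended when 1 array was left out: under sham Khk did not pass in 9 of 38 fits with 1 array left out (adjusted p up to 0.09) or without the 6 arrays (adjusted p = 0.087), and Pfkl in 11 fits with 1 array left out (adjusted p up to 0.119). After smoke Tkt did not pass in 8, each without 1 smoke array (adjusted p up to 0.0576), and Slc2a3 did not pass without HCR smoke 0419 or LCR smoke 0429 (adjusted p = 0.0517 and 0.0502) or without the 6 arrays (adjusted p = 0.104). Pfkp passed as lower in LCR under sham without HCR sham 0432 or 0439 (adjusted p = 0.0492 and 0.0405). After smoke, Eno2 passed as lower in LCR in 5 such fits (adjusted p = 0.0196 to 0.0495) and Eno1 as higher without HCR sham 0432 or LCR smoke 0420 (adjusted p = 0.0457 and 0.0446). Under sham, Vegfa passed as higher in LCR than in HCR without the 6 arrays, at 0.20 ± 0.06 (SE, adjusted p = 0.048), where it was 0.14 ± 0.07 (SE, adjusted p = 0.272) with all arrays. After smoke, Ldha was then higher in LCR by 0.19 ± 0.05 (SE, adjusted p = 0.0452), Pgd by 0.39 ± 0.10 (SE, adjusted p = 0.0307) and Pgm1 by 0.18 ± 0.04 (SE, adjusted p = 0.0121). With all arrays these values were 0.15 ± 0.05 (SE, adjusted p = 0.0777) for Ldha, 0.25 ± 0.10 (SE, adjusted p = 0.129) for Pgd and 0.12 ± 0.09 (SE, adjusted p = 0.432) for Pgm1.

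The smoke change differed between the lines for 3 of 35 members, Khk, Slc16a1 and Pfkp, each larger in LCR (8.57% against 1.87% of all genes). By direction, 1.52% of all genes passed with the more positive change in LCR and 0.352% with the more negative. The interaction had 10 members at an unadjusted p of 0.05, and the share of all genes at that threshold was not counted. Khk had lowest, median and highest intensities of 31.1, 37.6 and 42.2 on LCR smoke arrays, against 23.5, 24.3 and 29.4 on LCR sham arrays. In HCR, Khk lay at 23, 31.3 and 36.6 on smoke arrays, against 26.7, 29.1 and 36.6 on sham arrays. LCR sham animals had the lowest Khk values and LCR smoke animals the highest, with no overlap between them, while the HCR groups coincided. Khk changed by 0.38 ± 0.05 (SE, adjusted p = 3.19e-08) in LCR and -0.01 ± 0.05 (SE, adjusted p = 0.896) in HCR, a difference of 0.38 ± 0.07 (SE, adjusted p = 0.00221). That of Slc16a1 was 0.46 ± 0.12 (SE, adjusted p = 0.0452), and that of Pfkp 0.32 ± 0.09 (SE, adjusted p = 0.0491). Khk passed in all 38 fits with 1 array left out and in all 10 other settings that gave an interaction, whereas Pfkp did not pass in 25 and Slc16a1 in 22 of 38 fits with 1 array left out. Without the 6 arrays the Slc16a1 difference was 0.46 ± 0.12 (SE, adjusted p = 0.0705) and that of Pfkp 0.27 ± 0.10 (SE, adjusted p = 0.174).

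**Figure D4:**
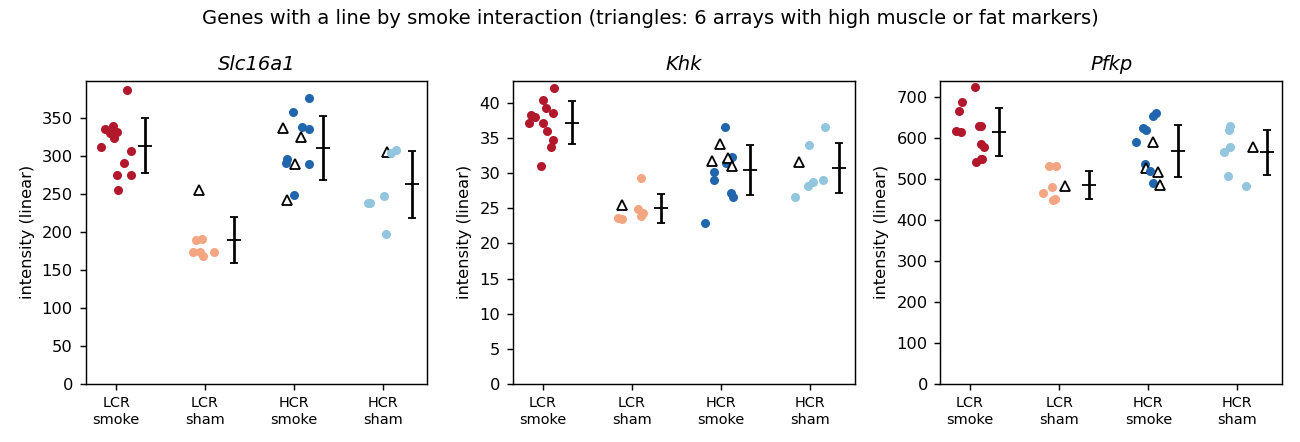
Linear intensity per animal of Slc16a1, Khk and Pfkp in the LCR smoke, LCR sham, HCR smoke and HCR sham groups, with group mean and SD. Triangles are the 6 arrays with high muscle or fat markers. For all 3 genes the LCR sham group has the lowest mean, and the 12 LCR smoke animals lie above each LCR sham animal.

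Among the 11 members higher in both lines, the LCR change was the larger in value in all 11. Only that of Slc16a1 passed the interaction test with all arrays, and Eno1 joined it without HCR sham 0432 (0.28, adjusted p = 0.0281), so a larger response of LCR is not shown for the other 10. All genes leaned the same way: of 266 past the interaction threshold, 216 had the more positive change in LCR. How many of all genes higher in both lines had the larger change in LCR was not counted. Array weighting, which gives divergent arrays less influence, raised the interaction count to 9 and the count of members that differed after smoke to 10, and the interquartile range as a covariate lowered the interaction count to 1. Shares over all genes were not counted in either setting, so these counts do not set the members apart from other genes. With only the sham groups in the fit, 0 members differed between lines under sham.

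Macrophage markers rose with smoke together with these genes. Of 15 listed and measured, 13 passed as higher and 1 as lower in LCR (22.7% and 27.9% of all genes). In HCR, 11 passed as higher and 2 as lower (17.7% and 30.4% of all genes). The list mean was 0.03 to 0.80 on LCR smoke arrays against -0.90 to -0.52 on LCR sham arrays, and -0.26 to 0.72 on HCR smoke arrays against -0.65 to -0.29 on HCR sham arrays, and no marker had a group mean intensity under 16. Within the 12 HCR smoke animals, Slc16a3 correlated with this mean (Pearson r = 0.911, adjusted p = 0.00048, Spearman rho = 0.916, adjusted p = 0.00176, permutation tests). The relation kept r = 0.834 without the 2 animals farthest from the median and r = 0.923 in the 8 animals without high heart muscle markers. Within the 12 LCR smoke animals r was 0.558 (permutation, adjusted p = 0.152) and rho 0.58 (adjusted p = 0.12), and r was 0.549 without the 2 farthest animals.

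Ldha followed the macrophage mean in LCR smoke animals at r = 0.753 (permutation, adjusted p = 0.0374) and rho = 0.739 (adjusted p = 0.0632), and at r = 0.556 without the 2 farthest animals. In HCR smoke animals it had r = 0.667 (permutation, adjusted p = 0.0977) and rho = 0.579 (adjusted p = 0.12), and r = 0.237 without the 2 farthest, so that value rests on them. In the 8 animals without high heart muscle markers, which still include those 2, Ldha had r = 0.888. These are 4 of 16 relations computed for 8 members in both smoke groups, and the other 12 did not pass. Pgd and Tkt had r = 0.0138 and -0.0744 in LCR smoke animals, and 0.335 and 0.467 in HCR smoke animals. In the 8 HCR smoke animals without high heart muscle markers, r was 0.501 for Pgd, 0.663 for Tkt, 0.743 for Slc2a1 and 0.545 for Slc16a1. It was -0.91 for Pfkm and -0.632 for Ddit4, and no p-value was computed for the 8 animals. Cell cycle markers passed as higher for 7 of 8 genes in either line and neutrophil markers for 5 of 8 in LCR and 4 of 8 in HCR. Of all genes, 22.7% passed as higher in LCR and 17.7% in HCR. Among the neutrophil markers, Camp had a mean intensity under 16 in every group, Cxcr2 in both sham groups and Mmp8 in LCR sham animals. The part of macrophages, neutrophils or dividing cells in the smoke changes was not tested.

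**Figure D5:**
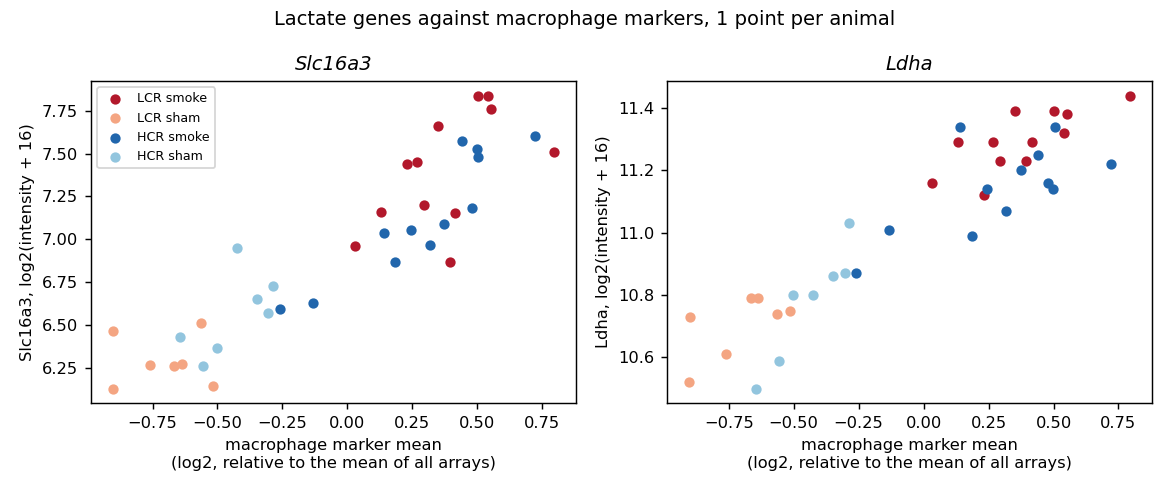
Slc16a3 (left) and Ldha (right) in log2(intensity + 16) against the mean of 15 macrophage markers, relative to the mean of all arrays, with 1 point per animal. Within HCR smoke animals Slc16a3 increases with the macrophage mean (r = 0.911, n = 12), and sham animals of both lines lie at the lower left.

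Other genes of the same routes were counted from lists that hold none of the members. Of 33 other measured genes of glycolysis and lactate metabolism, 6 passed as higher and 9 as lower in LCR, and 2 and 10 in HCR (45.5% and 36.4% of the list against 50.6% and 48.0% of all genes). By direction, 22.7% of all genes passed as higher and 27.9% as lower in LCR, and 17.7% and 30.4% in HCR. The median change of this list was -0.007 log2 in LCR and -0.127 in HCR, against 0.15 and 0.03 for the members, so the rise of the members was not seen in this list. Mpc1, a subunit of the mitochondrial pyruvate carrier, was higher in LCR at 0.33 ± 0.08 (SE, adjusted p = 0.000432). Gys1, muscle glycogen synthase, was lower, at -0.21 ± 0.05 (SE, adjusted p = 0.000312) in LCR and -0.26 ± 0.05 (SE, adjusted p = 2.7e-05) in HCR. The kinases that set fructose 2,6-bisphosphate were lower in HCR, Pfkfb1 at -0.72 ± 0.10 (SE, adjusted p = 4.5e-07) and Pfkfb4 at -0.52 ± 0.08 (SE, adjusted p = 7.91e-06). Ldhc, the testis lactate dehydrogenase, was at 0.15 ± 0.04 in LCR.

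Of 11 other pentose phosphate and ribose phosphate genes, 4 passed as higher and 0 as lower in LCR, and 3 as higher and 2 as lower in HCR. These are 36.4% and 45.5% of the list against 50.6% and 48.0% of all genes. The median change of the list was 0.11 log2 in LCR and 0.04 in HCR. Rpe, ribulose phosphate epimerase, rose by 0.31 ± 0.06 (SE, adjusted p = 2e-05) in LCR and by 0.24 ± 0.06 (SE, adjusted p = 0.000734) in HCR. Pgls, a lactonase of the oxidative branch, rose by 0.22 ± 0.05 (SE, adjusted p = 0.000543) in LCR, and Prps1, which makes the nucleotide precursor PRPP, by 0.16 ± 0.04 in both lines, with Prps2 at 0.20 ± 0.05 in HCR.

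Of 28 other hypoxia genes, 9 passed as higher and 6 as lower in LCR, and 6 and 8 in HCR. These are 53.6% and 50% of the list, near the 50.6% and 48.0% of all genes. The median change of the list was 0.05 log2 in LCR and -0.02 in HCR. Tfrc, the transferrin receptor, which is also under iron control, rose by 1.05 ± 0.09 (SE, adjusted p = 1.95e-11) in LCR and by 0.66 ± 0.09 (SE, adjusted p = 3.55e-07) in HCR. Higd1a, a mitochondrial protein induced by hypoxia, rose by 0.46 ± 0.09 (SE, adjusted p = 4.58e-05) in LCR. Zfp395 was lower in LCR, at -0.47 ± 0.08 (SE, adjusted p = 8.28e-06). In HCR, Mxi1, a MYC antagonist, was at -0.27 ± 0.06 (SE, adjusted p = 0.000204) and Vhl, which targets hydroxylated HIF subunits, at -0.17 ± 0.04 (SE, adjusted p = 0.000369).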

How the data were processed

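Lung RNA of 38 rats was hybridised to Affymetrix Rat Genome 230 2.0 arrays after biotin labelling, per the labels' protocols. In the deposited table the values are intensity on a linear scale, between 2.0912 and 11558, for 31099 probe sets. The summarisation and normalization software was not given in the sources used here. Of the probe sets, 20832 carried 1 symbol, 436 several and 9831 none in the platform annotation. Probe sets with several symbols or none were left out, and a gene with several probe sets (4526 of 14218 genes) was read from the one with the highest mean. Pearson correlations between arrays lay between 0.963 and 0.997. Array number runs in blocks by group, so its effect and the group cannot be told apart, and the number of arrays limits the precision.

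The values were analysed as log2(intensity + 16), where 16 is the pseudocount, in limma 3.58.1 and R 4.3.3. A model of 4 group means on the 38 arrays left 34 residual degrees of freedom (lmFit and eBayes, two-sided), with Benjamini-Hochberg adjustment over all genes. The adjusted p given for any gene comes from limma. Contrasts were smoke minus sham in each line, LCR minus HCR in sham and in smoke animals, and the interaction (LCR smoke change minus HCR smoke change). The fit was tested on simulated data with known changes. Correlations used Pearson's r and Spearman's rho with two-sided permutation tests of 100000 resamples, adjusted over 16, in SciPy 1.17.1.

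Members and lists were chosen with earlier results of these data known. Values per group are given for members that passed with a change of at least 0.4 log2 in a smoke contrast or 0.3 in a line contrast or the interaction, for Hif1a, Epas1, Ldha, Gapdh and Pgd, and, chosen after its values were seen, for Egln1. From the other pathway lists the 3 smallest adjusted p per line were named among genes that passed. The alternatives tried were a pseudocount of 1, median-centred arrays, quantile normalization, the dimmest genes left out, probe sets averaged per gene, fits of only the groups compared, array weights, a robust variance with an intensity trend, the interquartile range or the Actb 3′ minus 5′ difference as a covariate, 6 arrays left out together, and each array left out. The fit of all probe sets and the correlations without 4 arrays were added after seeing the data.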

Additional observations from a re-analysis of the deposited data

Results flagged for a closer look

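Of 70 group values of members in the sham groups, 16 held an animal far from the others of its group, where chance flags about 1 in 20 groups, 3.5 here. HCR sham 0433, the array with skeletal muscle and fat markers, was the high animal for 8 members: Aldoa at 12.19 log2(intensity + 16), Gapdh at 11.57, Pgk1 at 10.7, Tpi1 at 10.22, Tkt at 10.1, Ldhb at 9.793, Pfkm at 9.025 and Pgm1 at 8.747. LCR sham 0442, the array with heart muscle markers, was the high animal for Ldhb at 10.28, Slc16a1 at 8.081, Pfkm at 8.057 and Egln3 at 7.036, and the low animal for Vegfa at 10.41. These 13 of the 16 values lie on 2 arrays, and the part of muscle RNA in each was not tested. The other 3 were Hk1, high on HCR sham 0438 at 8.235, Vegfa, low on HCR sham 0436 at 10.23, and Khk, high on LCR sham 0441 at 5.503.

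The smoke change differed between the lines for 3 members, each larger in LCR than in HCR. In that direction 1.52% of all genes passed, and in the other 0.352%. The difference was 0.3846 log2 for Khk (limma, adjusted p = 0.00221), 0.455 for Slc16a1 (limma, adjusted p = 0.0452) and 0.3244 for Pfkp (limma, adjusted p = 0.0491).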

How the results depend on the processing

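Among 49 alternative settings, 38 of which left out 1 array, none of the calls changed direction. Calls kept in all of them numbered 17 of 20 for smoke in LCR, 9 of 18 for smoke in HCR, 0 of 3 between the lines under sham, 1 of 3 after smoke (Khk) and 1 of 3 for the interaction (Khk). With 1 array left out, smoke in LCR gave 18 to 21 calls (15 to 18 higher, 3 to 4 lower) and smoke in HCR 17 to 22 (11 to 16 higher, 5 to 7 lower). The line difference gave 1 to 4 under sham and 1 to 5 after smoke, and the interaction 1 to 5. In HCR 3 lower calls were left when the interquartile range was a covariate. The line difference under sham had 0 calls with only the groups compared, where 3 were made with all arrays (limma; 6 members had an unadjusted p under 0.05 in that fit). After smoke it had 5 with only the groups compared, 10 with array weights, 5 with the Actb difference and 5 without the 6 arrays. The interaction had 9 calls with array weights and 1 with the interquartile range, and no interaction can be had from a fit of 2 groups. Shares over all genes were not counted with array weights, with a covariate, with only the groups compared or without the 6 arrays. The calls of Epas1 in both lines and of Egln1 in HCR ended with the mean of the probe sets, and that of Epas1 in HCR with median-centred arrays. The cause was not tested in any of these. Counts of the other pathway genes stayed within 1.5 times. No paired analysis was possible because the array numbers differ between all animals and pair none of them.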
